A study of Mus musculus with 8 samples.

Results

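Macrophages, and the Kupffer cells that line the sinusoids of the liver, carry a set of genes that most other liver cells do not use, and 10 of them are described here by their DNA methylation in liver. The 7 general macrophage genes were Adgre1, Csf1r, C1qa, C1qb, C1qc, Mpeg1 and Spi1. The 3 resident Kupffer genes were Cd5l, Timd4 and Marco. A gene's locus was every cytosine of a CpG listed inside its RefSeq span and the 5 kb on either side, in mm10. The 10 loci held 6142 distinct positions (4572 in the general loci and 1570 in the resident Kupffer loci) of 30729668 listed on the chromosomes used, and they were read against 33989 gene loci.

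Whole-genome bisulfite sequencing, which reads unmethylated cytosines as thymine, was done on whole liver of male C57BL/6J mice, an inbred strain, of wild-type genotype in all samples. The mice were bought at 8 weeks of age and then fed for 28 weeks. One group received a normal diet (4 libraries, called ND) and the other a diet rich in fat, cholesterol and fructose (4 libraries, called NASH, for nonalcoholic steatohepatitis). These groups follow the titles and column names. The treatment entry of each sample says the opposite of its title, and with that entry every direction below would turn round. Whether each library is a different mouse is not stated, so p-values measure only the spread between libraries, which may be technical. The diet is the disease model, and no purified macrophages were sampled: in whole liver DNA, a change in the share of macrophages and a change of methylation within a cell type cannot be told apart.

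In blood-forming cells, methylation at the genes a lineage uses is typically low around starts and enhancers and high elsewhere. Spi1 encodes PU.1, the transcription factor that directs cells to the macrophage fate, and Csf1r encodes the receptor for the growth factors CSF1 and IL-34, on which liver macrophages depend. Embryo-derived Kupffer cells express Timd4, Cd5l and Marco, and in steatohepatitis they are in part replaced by macrophages from blood monocytes, which are slow to acquire Timd4.

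Values are percent methylation, the deposited table holds no read counts, and the depth behind each level is unknown. Mean methylation over all positions was 71.0% to 72.3% in the NASH and 71.1% to 72.3% in the ND libraries. Between 12.3% and 13.1% of the levels in a library were exactly 0, and some zeros can stand for positions without reads. Positions at 0 in all 8 libraries were most common at Adgre1 (105 of 1350, 7.78%), against at most 2.44% at the other loci. In single libraries zeros reached 18.5% of the positions at Adgre1, 21.6% at C1qa and 18.1% at C1qc. At genes of hepatocytes, the main cell type of liver, the mean level of the 19 tested loci was 45.8% to 46.5% in ND, while the 7 general macrophage loci stood at 67.0% to 69.0%.

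The RefSeq promoter sequences of mm10 (GRCm38.p6) matched 6 of the 10 genes (Mpeg1, C1qb, C1qc, Cd5l, Timd4 and Marco) and did not hold Adgre1, Csf1r, C1qa or Spi1. They run from 250 bases before to 50 bases after the start of a gene. Shown are the promoters of the member with the clearest difference, of C1qb and of the 3 resident Kupffer genes, because they differ in the number of CpGs that can carry methylation. CpGs are in capitals.
Mpeg1 (chr19:12460520-12460819, + strand): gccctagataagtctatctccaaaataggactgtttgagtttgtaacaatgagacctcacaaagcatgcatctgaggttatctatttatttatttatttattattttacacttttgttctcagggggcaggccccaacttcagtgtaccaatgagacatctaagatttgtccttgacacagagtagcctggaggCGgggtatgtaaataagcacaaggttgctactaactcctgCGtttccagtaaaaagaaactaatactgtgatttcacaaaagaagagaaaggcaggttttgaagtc
C1qb (chr4:136886151-136886450, - strand): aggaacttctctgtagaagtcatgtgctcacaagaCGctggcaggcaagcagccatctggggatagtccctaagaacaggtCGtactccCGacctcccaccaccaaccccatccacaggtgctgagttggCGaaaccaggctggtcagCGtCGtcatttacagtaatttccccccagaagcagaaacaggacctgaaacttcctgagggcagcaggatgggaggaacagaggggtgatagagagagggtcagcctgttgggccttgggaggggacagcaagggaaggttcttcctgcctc
Timd4 (chr11:46810549-46810848, + strand): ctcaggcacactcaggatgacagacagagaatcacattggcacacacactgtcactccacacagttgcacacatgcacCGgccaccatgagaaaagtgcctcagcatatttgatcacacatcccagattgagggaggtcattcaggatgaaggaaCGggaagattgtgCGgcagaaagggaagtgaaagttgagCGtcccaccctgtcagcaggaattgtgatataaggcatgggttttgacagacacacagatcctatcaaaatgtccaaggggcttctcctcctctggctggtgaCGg
Cd5l (chr3:87357631-87357930, + strand): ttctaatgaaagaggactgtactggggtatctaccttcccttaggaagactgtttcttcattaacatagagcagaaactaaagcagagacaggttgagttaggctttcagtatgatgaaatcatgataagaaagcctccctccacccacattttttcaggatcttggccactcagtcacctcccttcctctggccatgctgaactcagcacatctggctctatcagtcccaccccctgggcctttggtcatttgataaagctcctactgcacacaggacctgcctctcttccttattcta
Marco (chr1:120504975-120505274, - strand): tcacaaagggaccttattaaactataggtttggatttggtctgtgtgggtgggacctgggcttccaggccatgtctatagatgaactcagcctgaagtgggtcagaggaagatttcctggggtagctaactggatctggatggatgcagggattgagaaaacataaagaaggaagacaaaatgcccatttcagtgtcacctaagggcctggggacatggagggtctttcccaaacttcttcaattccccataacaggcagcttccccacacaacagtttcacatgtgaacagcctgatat
The C1qb promoter has 6 CpGs, Timd4 5, C1qc 3 and Mpeg1 2, and the promoters of Cd5l and Marco have 0. The median over all 32851 promoters was 7, and 5.43% had 0. The letters GAGGAA, the purine-rich core that PU.1 binds, were searched on both strands (TTCCTC on the other). They occurred in 4 of the 6 promoters (C1qb, C1qc, Cd5l and Marco) and in 28.3% of all promoters of the same length, a match of letters only.

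Methylation of the whole locus was compared first. Mpeg1 was the member whose locus passed the test, at a lower level in NASH than in ND. Its gene and the 5 kb upstream also passed with all libraries, but most fits that left out a library called neither part. The other general macrophage loci were also at lower means in NASH, by 0.902 to 2.32 points, but did not pass the test. The resident Kupffer loci were within 0.639 points of ND. The test was limma on locus means over all 33989 loci with Benjamini-Hochberg adjustment, called at an adjusted p under 0.05, and 5.2% of all loci were called (1.95% called lower in NASH, 664 loci, and 1104 called higher). With each library centred on its own genome-wide mean the split was 526 lower and 1590 higher.

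Mpeg1 encodes perforin-2, a pore-forming protein of phagocytes that attacks engulfed bacteria, and is expressed across macrophages. Its locus stood at 71.0%, 70.8%, 68.8% and 67.6% in NASH libraries 1 to 4 and at 77.1%, 75.6%, 76.6% and 73.9% in ND libraries 1 to 4, over 282 positions. Every NASH library was below every ND library. The means were 69.5% ± 1.64 and 75.8% ± 1.41 (SD, n = 4 each), a difference of -6.27 points (SE 0.992, limma adjusted p = 0.0113). With flanks of 10 kb in place of 5 kb the difference was -4.64 points and was not called (limma adjusted p = 0.0995), in a fit that called 6.13% of all loci.

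Spi1 had the second-smallest p among the members. The gene lies at chr2:91082374-91115759, and one flank reaches into Mybpc3. Its locus, with 1230 positions, was at 67.1%, 63.8%, 66.2% and 64.7% in NASH and at 68.1%, 67.3%, 67.7% and 68.0% in ND. The groups did not overlap, as at 14.5% of all loci, and the difference of -2.32 points was not called (limma adjusted p = 0.127). When every 0 was left out it was -5.03 points and was called (limma adjusted p = 0.0161).

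Csf1r was at 80.6%, 79.2%, 77.4% and 79.4% in NASH and at 81.0%, 80.6%, 80.4% and 80.9% in ND, the highest group means of the 10 loci. NASH library 1 lay among the ND libraries, and the difference of -1.61 points was not called (limma adjusted p = 0.219). The gene (chr18:61105572-61131139) overlaps Gm52352 and Mir6983, and the flank reaches into Hmgxb3.

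C1qa, C1qb and C1qc encode the 3 chains of C1q, the recognition subunit of the complement pathway, which macrophages supply. The genes lie side by side (C1qb at chr4:136880126-136886200, C1qc at chr4:136889801-136892936 and C1qa at chr4:136895916-136898844), so their loci share positions: they sum to 1214, of which 772 are distinct, and they are not independent of each other. C1qa was at 52.5% ± 0.853 in NASH and 54.4% ± 1.83 in ND, C1qb at 71.3% ± 1.88 and 72.7% ± 0.831, and C1qc at 57.9% ± 1.29 and 59.9% ± 2.35 (SD, n = 4 each). The differences of -1.85, -1.39 and -2.0 points were within the spread of the libraries, which overlapped at all 3 loci (limma adjusted p = 0.302, 0.455 and 0.383).

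Adgre1 encodes F4/80, the classical surface marker of mouse macrophages. Its gene is the longest of the set (chr17:57358581-57483529) and overlaps the pseudogenes Gm18069 and Gm20243. The locus had 64.8% ± 1.36 in NASH and 65.7% ± 1.05 in ND (SD, n = 4 each), a difference of -0.902 points (limma adjusted p = 0.585). It was also the sparsest in CpGs, with 5.0 per kb against a median of 10.4 over all loci.

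Cd5l encodes a secreted scavenger protein known as AIM, Timd4 a receptor for phosphatidylserine on dying cells, and Marco a scavenger receptor for bacteria and particles. Cd5l lies at chr3:87357881-87371074, Timd4 at chr11:46810786-46844333 and Marco at chr1:120474538-120505024. By limma 0 of the 3 loci were called, and 0 had an unadjusted p under 0.05. The Cd5l locus was at 78.6%, 78.1%, 79.4% and 79.3% in NASH and at 79.2%, 80.1%, 80.3% and 78.4% in ND, a difference of -0.639 points (limma adjusted p = 0.588). Timd4 was at 75.4%, 76.5%, 78.6% and 78.3% in NASH and at 77.8%, 75.3%, 77.7% and 76.5% in ND, a difference of 0.365 points (limma adjusted p = 0.860) whose sign turned under 6 of 19 alternatives. Marco was at 71.8%, 73.3%, 74.2% and 73.9% in NASH and at 75.8%, 70.0%, 74.4% and 74.1% in ND, a difference of -0.312 points (limma adjusted p = 0.915) whose sign turned under 3 of 19. NASH and ND libraries were interleaved at all 3 loci.

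Of the 10 loci, 9 had a lower mean in NASH, as had 63% of all loci, and their median difference was -1.50 points against -0.407 over all loci. Mpeg1 was the 1 member called. Unadjusted p-values under 0.05 were reached by 3 members (Mpeg1, Spi1 and Csf1r) and by 21.3% of all loci. Groups without overlap, lower in NASH, were found at 2 members (Mpeg1 and Spi1) and at 7.69% of all loci.

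**Figure D1:**
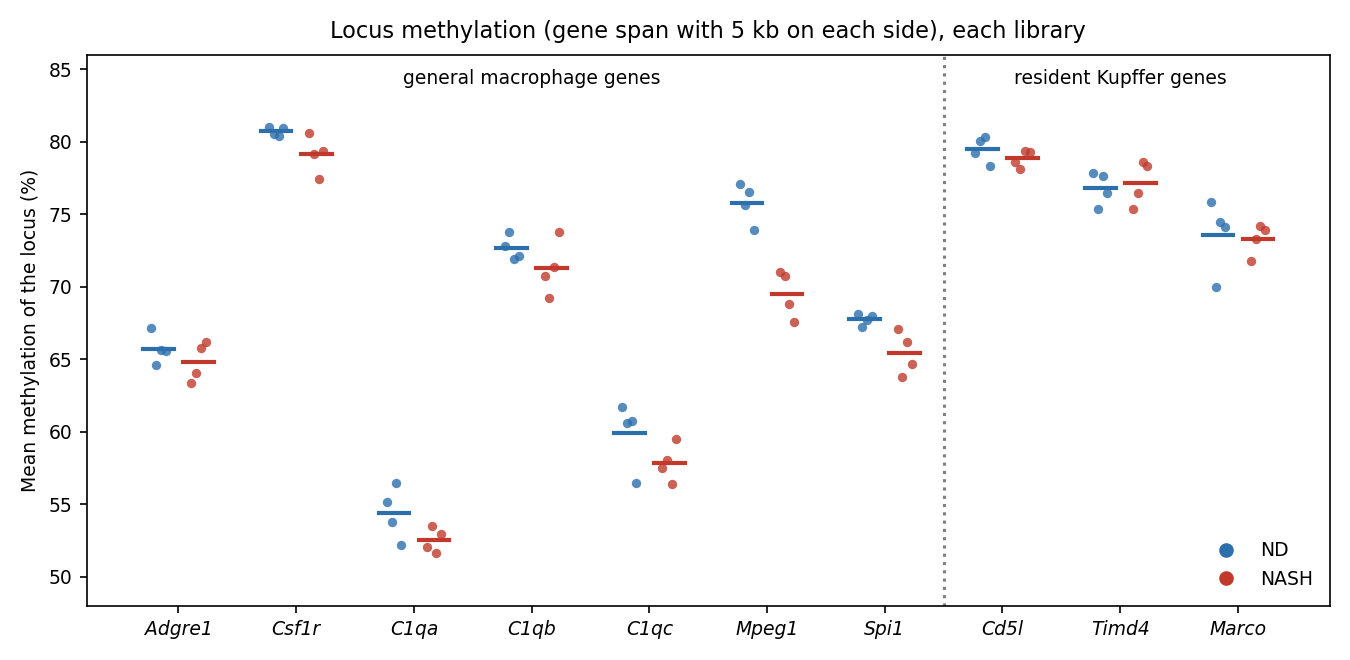
Mean methylation of each locus (percent, vertical axis, which does not start at 0) in the 4 ND (blue) and 4 NASH (red) libraries, with bars at group means; the 7 general macrophage genes are left of the dotted line and the 3 resident Kupffer genes right of it. At Mpeg1 the NASH libraries sit at 67.6% to 71.0%, all below the ND libraries at 73.9% to 77.1%, and at Cd5l, Timd4 and Marco the groups overlap.

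The resident Kupffer genes were set against the general macrophage genes within each library, as the mean of 3 loci and the mean of 7. The general mean was 66.0%, 65.5%, 65.4% and 66.3% in NASH and 69.0%, 68.0%, 68.5% and 67.0% in ND, so that every NASH library was lower. The Kupffer mean was 75.3%, 76.0%, 77.4% and 77.2% in NASH and 77.6%, 75.1%, 77.5% and 76.3% in ND, and the groups overlapped. Group means differed by -2.33 points for the general genes and by -0.195 points for the Kupffer genes.

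The Kupffer mean exceeded the general mean by 9.22, 10.5, 12 and 10.9 points in NASH and by 8.62, 7.11, 8.98 and 9.30 points in ND. The excess was 10.6 ± 1.15 points in NASH and 8.50 ± 0.967 in ND (SD, n = 4 each), 2.14 points larger in NASH, and NASH library 1 fell just below ND library 4. Leaving out Mpeg1 brought the change to 1.48 points, and counting the C1q genes as 1 locus gave 2.38. No p is given, because the genes were chosen with earlier results known.

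**Figure D2:**
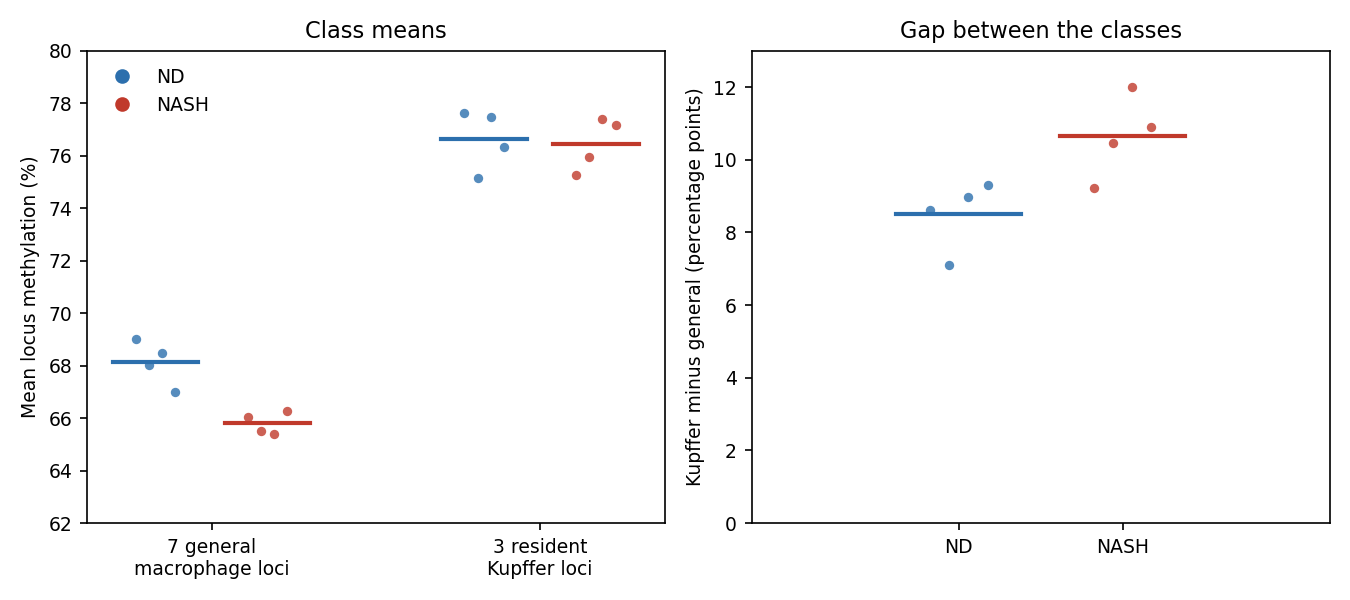
Left, mean locus methylation (percent, axis not starting at 0) of the 7 general macrophage loci and of the 3 resident Kupffer loci in each library; right, the Kupffer mean minus the general mean (percentage points), ND in blue and NASH in red with bars at group means. The general mean is lower in every NASH library (65.4% to 66.3% against 67.0% to 69.0%), the Kupffer means overlap, and the gap is 7.11 to 9.30 points in ND and 9.22 to 12 in NASH.

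The share of positions at low levels in ND liver was described without a test, and zeros that stand for positions without reads would add to it. Positions with a mean ND level under 20% made up 0.802% of Cd5l, 1.68% of Timd4 and 3.18% of Marco. Among the general genes this share ran from 3.44% at C1qb and 4.48% at Csf1r, close to Marco, to 14.6% at Spi1 and 18.1% at C1qa. In windows of 1 kb, Cd5l and Timd4 had 0 windows below 50% in ND, and Marco had 2 of 40. C1qb had 1 of 17 such windows, Csf1r 3 of 37, Mpeg1 3 of 16, C1qa and C1qc 3 of 14 each, Spi1 5 of 44 and Adgre1 16 of 99. The lowest window of Adgre1 (chr17:57373001-57374000) was listed at 0 in 7 of the 8 libraries, and whether it is unmethylated or without reads cannot be told apart. CpGs were also denser at most general loci, with 9.71 to 16.4 per kb outside Adgre1, against 6.15 to 8.15 per kb at the Kupffer loci.

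Each locus was then split into the gene span and its flanks. The Mpeg1 gene (chr19:12460770-12465285) was at 60.6%, 61.2%, 59.3% and 55.0% in NASH and at 75.1%, 71.4%, 75.0% and 65.3% in ND. The libraries did not overlap, and the difference of -12.7 points (SE 2.46) was called (limma adjusted p = 0.0400), among 3.47% of all gene spans called. In 7 of the 8 fits that left out 1 library it was not called, with limma adjusted p from 0.0353 to 0.108 and differences from -14.8 to -11.4 points.

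The 5 kb upstream of Mpeg1 were at 71.9%, 70.7%, 70.1% and 69.4% in NASH and at 74.4%, 75.4%, 77.2% and 76.7% in ND, a difference of -5.37 points that was called (limma adjusted p = 0.0458; 2.16% of all flanks on the side of the smaller coordinate). It was called in 0 of the 8 fits that left out 1 library (limma adjusted p 0.0745 to 0.118). The 5 kb downstream, which reach into Dtx4, were at 77.8% ± 1.67 in NASH and 79.3% ± 1.67 in ND (SD, n = 4 each) and were not called (limma adjusted p = 0.619; 1.98% of all flanks on the side of the larger coordinate). Of the 3 differences the one within the gene was the largest.

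No other part of a member locus was called. The Spi1 gene was 2.70 points lower in NASH (68.3% against 71.0%, limma adjusted p = 0.129) and the Cd5l gene 1.71 points lower (79.2% against 80.9%, limma adjusted p = 0.106). Both were lower in NASH without overlap of the libraries, as were 6.61% of all gene spans. The 5 kb upstream of Marco went the other way, with 73.4%, 75.9%, 74.9% and 77.2% in NASH against 73.4%, 69.6%, 71.0% and 72.2% in ND (difference 3.81 points, limma adjusted p = 0.182). With zeros among highly methylated neighbours left out that difference was 1.83 points.

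Levels along the genes were then compared in windows of 1 kb. By limma 0 of the 327 windows in the member loci were called, against 4 of 1609837 in the whole table (0.000248%). At an unadjusted p under 0.05 there were 46 member windows (14.1%, against 10.9% of all windows). In the general loci 140 of 225 windows had a lower mean in NASH, and in the Kupffer loci 51 of 102, beside 57.8% of all windows. Windows whose libraries did not overlap were lower in NASH 20 times and higher 0 times in the general loci, and lower 3 times and higher 2 times in the Kupffer loci. Of all windows 6.49% did not overlap, 3.71% with NASH lower.

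The window with the smallest p at Mpeg1 (chr19:12461001-12462000) lies just inside the gene. It was at 78.8%, 79.0%, 76.7% and 72.4% in NASH and at 92.5%, 87.5%, 98.1% and 89.5% in ND, a difference of -15.2 points (limma adjusted p = 0.118). The window over the start itself (chr19:12460001-12461000) was already low in both groups, at 39.3% ± 2.37 in NASH and 37.7% ± 5.05 in ND (SD, n = 4 each). Further into the gene, the window at chr19:12463001-12464000 was at 57.1% in NASH and 73.4% in ND (limma adjusted p = 0.153). Upstream, the window at chr19:12457001-12458000 was at 67.5% and 79.6% (limma adjusted p = 0.245). Both were named after their values were seen, and neither was called. Their libraries did not overlap, as in 6.49% of all windows. The lower levels of these windows lay on either side of the window over the start.

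At Spi1 the leading window (chr2:91097001-91098000), inside the gene, was at 77.5%, 73.2%, 68.0% and 67.8% in NASH and at 91.4%, 83.8%, 94% and 85.6% in ND. All NASH libraries were lower, by -17.1 points in the mean (limma adjusted p = 0.131). Of the 44 windows of this locus 7 were lower without overlap, against 3.71% of all windows. At Csf1r the leading window, within the gene, was at 81.4% in NASH and 89.3% in ND (limma adjusted p = 0.206). At Adgre1 it was at 46.0% and 57.9% (limma adjusted p = 0.282), inside the gene.

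C1qb and C1qc shared their leading window, chr4:136886001-136887000, which holds the C1qb start. It was at 60.6%, 64.2%, 60.6% and 54.3% in NASH and at 73.3%, 70.5%, 72.4% and 65.0% in ND, again without overlap (difference -10.4 points, limma adjusted p = 0.293). C1qa had its leading window inside the gene, with 21.9% in NASH and 25.9% in ND (limma adjusted p = 0.464).

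Among the resident Kupffer genes the leading windows did not share a direction. At Cd5l it lay downstream, within the lncRNA gene Gm31940, at 56.3% in NASH and 68.9% in ND (limma adjusted p = 0.225). This window (chr3:87376001-87377000) only touches the edge of the locus, which ends at 87376074. The window with the smallest p among those wholly inside the locus (chr3:87361001-87362000, named after its values were seen) was at 70.1% in NASH and 80.8% in ND (limma adjusted p = 0.27). At Marco it lay at the far end of the gene, at 68.0% and 74.9% (limma adjusted p = 0.377). At Timd4 it was higher in NASH, at 75.4% against 65.3% (limma adjusted p = 0.324), on 6 positions. Libraries did not overlap in any of the 3 leading windows. Each was picked for the smallest p of its locus, which favours such windows, and 6.49% of all windows did not overlap.

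**Figure D3:**
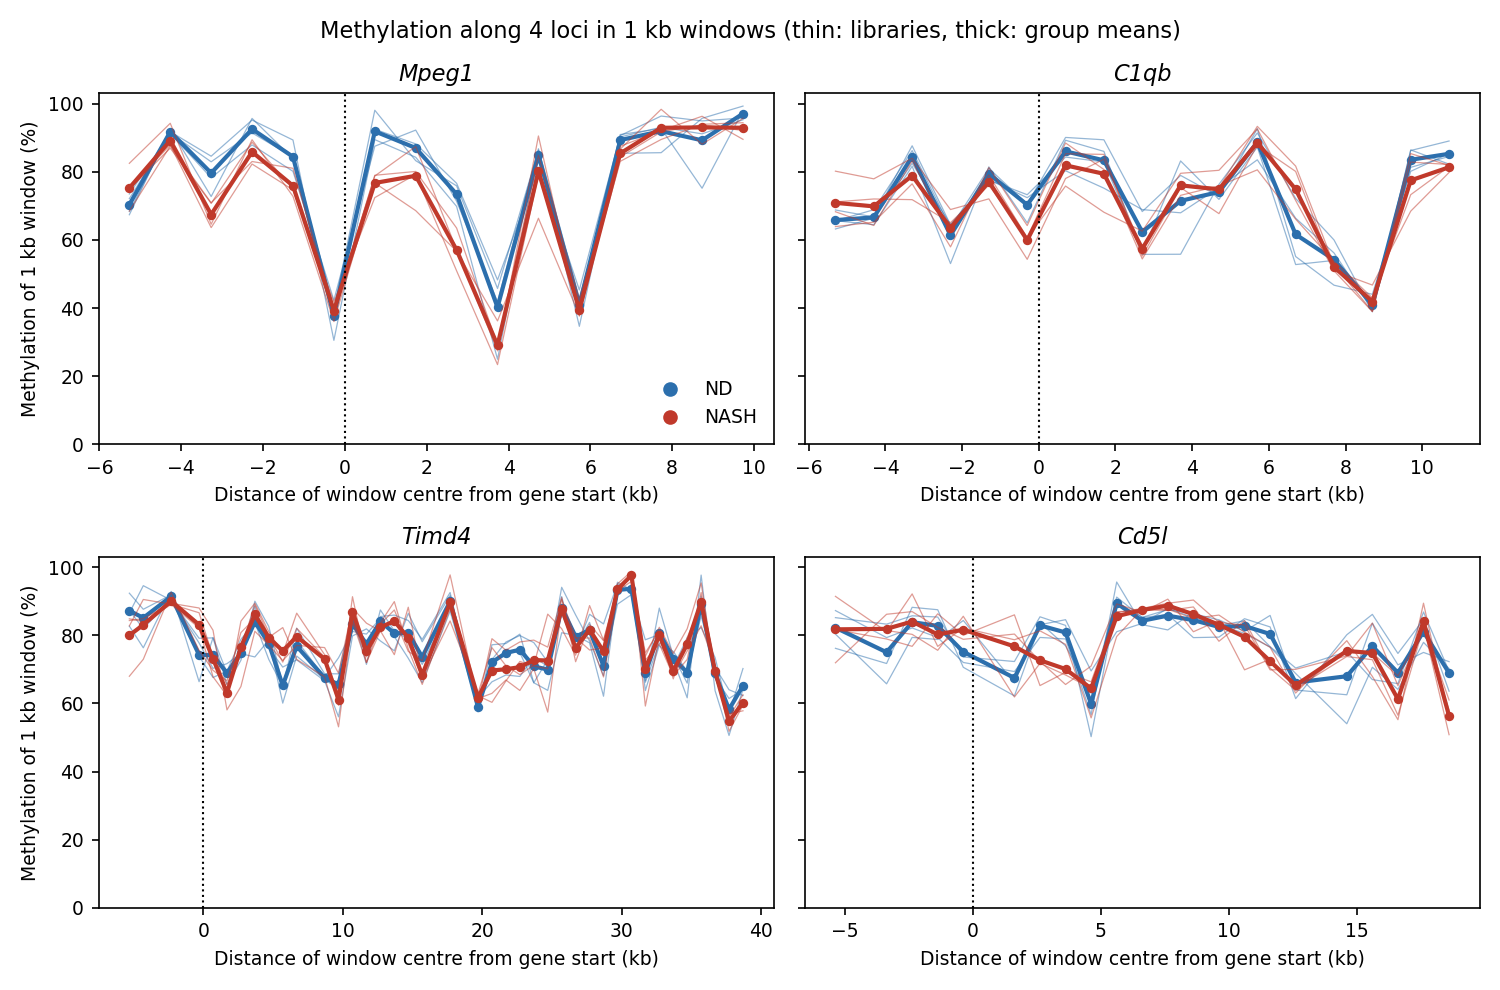
Methylation (percent) of 1 kb windows along Mpeg1, C1qb, Timd4 and Cd5l by distance of the window centre from the gene start (kb, positive into the gene); thin lines are libraries, thick lines group means, ND in blue and NASH in red, and the dotted line marks the start. At Mpeg1 both groups dip to 37.7% and 39.3% at the start and separate on either side of it, at C1qb they separate at the start, and at Timd4 and Cd5l the lines cross repeatedly. None of the windows was called by limma.

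Gene starts, from 1000 bases before to 500 bases after the start, were compared for the 6 genes whose start is given. limma called 0 of the 6 member starts, against 60 of 22549 starts (0.266%), and 2 of the 6 (C1qb and Mpeg1) had an unadjusted p under 0.05, as had 13.6% of all starts. At C1qb the start was at 64.6%, 66.7%, 63.2% and 57.1% in NASH and at 74.8%, 73.0%, 73.1% and 69.4% in ND. Every NASH library was lower, by -9.67 points in the mean (limma adjusted p = 0.128), and 4.62% of all starts were lower without overlap. At Mpeg1 the start was at 46.8%, 45.6%, 42.3% and 46.3% in NASH and at 51.6%, 53.3%, 55.4% and 46.8% in ND (difference -6.52 points, limma adjusted p = 0.266). Taken to 2000 bases on both sides, the Mpeg1 start differed by -8.76 points and was called (limma adjusted p = 0.0339), in a fit that called 800 starts (3.53%).

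C1qc was at 53.8% in NASH and 57.1% in ND at its start (limma adjusted p = 0.747). The resident Kupffer starts had higher means in NASH, none of them called. Timd4 was at 74.2%, 81.2%, 87.3% and 80.9% in NASH and at 79.1%, 67.3%, 72.5% and 76.3% in ND (difference 7.08 points, limma adjusted p = 0.412). Cd5l was at 80.2%, 80.1%, 78.9% and 83.0% in NASH and at 74.0%, 82.2%, 75.3% and 72.8% in ND (difference 4.47 points, limma adjusted p = 0.430). ND libraries lay within the NASH range at both, 2 at Timd4 and 1 at Cd5l. Marco was at 70.2% ± 4.34 and 69.3% ± 8.57 (SD, n = 4 each), and its difference of 0.919 points became -3.86 when zeros among highly methylated neighbours were left out.

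**Figure D4:**
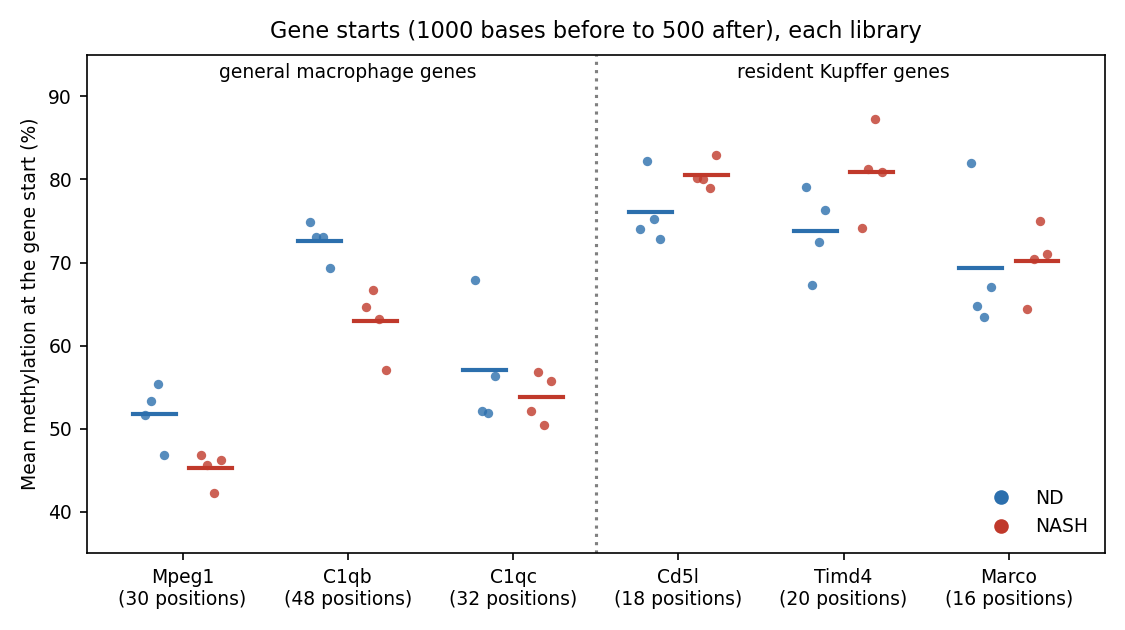
Mean methylation (percent, axis not starting at 0) from 1000 bases before to 500 bases after the gene start in each ND (blue) and NASH (red) library, with bars at group means and the number of positions under each name. C1qb NASH libraries sit at 57.1% to 66.7%, below the ND libraries at 69.4% to 74.8%; at Timd4 and Cd5l the NASH means are higher and the groups overlap.

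The CpGs printed above were read out singly, as means of both strands, with a depth that is not known. All 6 CpGs of the C1qb promoter had lower means in NASH, by -7.40 to -44.7 points, but the libraries overlapped at each of them. The largest gap was at position -215 from the start (31.6% ± 29.5 against 76.2% ± 16.4, SD, n = 4 each). There NASH library 3 was at 0, which can stand for a position without reads. NASH library 4, at 71.25%, lay within the ND range. At Timd4 the 4 CpGs before the start had higher means in NASH, by 12.9 to 23.3 points, and the CpG at position 47 had a lower mean by -11.8. The Timd4 CpG at position -56 was at 94.4%, 95.8%, 94.4% and 88.9% in NASH and at 80.4%, 75.7%, 58.3% and 83.3% in ND, without overlap. Both Mpeg1 CpGs were low, at 37.5% and 28.1% in NASH and 26.2% and 13.8% in ND (positions -56 and -16), higher in the NASH means, opposite to the locus.

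For Adgre1, Csf1r, C1qa and Spi1, whose start is not given in the sequences used, both gene ends were compared in the same way. limma called 0 of these 8 ends, against 10 of 67103 ends (0.0149%), and 5 of the 8 had an unadjusted p under 0.05, as had 13.2% of all ends. The Spi1 end with the larger coordinate is rich in CpGs, with 100 positions, and holds the lowest window of the gene (chr2:91115001-91116000, 9.86% in ND and 24.9% in NASH). This end was at 33.0%, 23.4%, 41.7% and 38.7% in NASH and at 21.9%, 20.1%, 23.6% and 24.3% in ND, a difference of 11.7 points against the direction of the locus (limma adjusted p = 0.223), with NASH library 2 among the ND libraries. The other Spi1 end was at 73.6% in NASH and 84.7% in ND (limma adjusted p = 0.309). At 2000 bases on both sides that end was called (limma adjusted p = 0.0404), in a fit that called 995 ends (1.46%).

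The Csf1r end with the larger coordinate was at 81.6%, 81.0%, 73.6% and 75.2% in NASH and at 83.4%, 96.9%, 84.3% and 84.2% in ND, without overlap (difference -9.34 points, limma adjusted p = 0.296; 4.29% of all ends were lower without overlap). ND library 2 stood apart there. Without it the difference was -6.12 points. Adgre1 differed by -9.13 points at one end and 6.74 at the other, and C1qa by -2.60 and -4.80 (limma adjusted p from 0.327 to 0.743).

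Single positions were counted without a test. Libraries did not overlap at 98 of the 6142 member positions with NASH lower (1.60%, against 1.09% of all positions) and at 56 with NASH higher (0.912%, against 0.948%). Mpeg1 held 14 lower and 2 higher of 282, and Spi1 33 lower and 17 higher of 1230. In the resident Kupffer loci the counts were 22 lower and 15 higher of 1570.

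Other macrophage genes were read from the locus fit. It held 21 of 26 listed general genes and 10 of 18 listed genes of recruited and lipid-associated macrophages. The rest of these lists was not tested. Of 21 tested general macrophage genes outside the members 2 fell and 0 rose: Lyz2, lysozyme, from 81.0% in ND to 76.3% in NASH (limma adjusted p = 0.0253), and Cd14, the co-receptor for bacterial lipopolysaccharide, from 47.7% to 45.1% (limma adjusted p = 0.0238). The median difference of the 21 was -1.08 points, against -0.407 over all loci. A lower mean was found at 19 of the 21, and at 63% of all loci. Of all loci 1.95% were called lower. Of 10 genes of recruited and lipid-associated macrophages 1 fell, S100a4, a calcium-binding protein of monocytes, from 79.4% to 75.9% (limma adjusted p = 0.0163), with a median of -2.05 points. With zeros among highly methylated neighbours left out, 0 of these 10 and 5 of the 21 were called, against 5.76% of all loci in that fit.

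Only 9 of 18 other Kupffer genes listed were tested, so this list is incomplete. Of these 9, 1 rose, Slc40a1, the iron exporter ferroportin, from 48.5% in ND to 51.2% in NASH (limma adjusted p = 0.0291). The median of the 9 was -0.693 points. Of 16 listed genes of the CSF1 receptor pathway 12 were tested, Csf1r and Spi1 among them, and 1 fell. This was Inpp5d, a lipid phosphatase that restrains signalling in blood cells, from 82.7% to 80.1% (limma adjusted p = 0.0208). The median of the 12 was -0.895 points. The called share in these 4 lists was 8.33% to 11.1% against 5.2% of all loci, from 1 or 2 genes each.

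Genes of other liver cells moved too. All 19 tested hepatocyte loci rose in NASH (among them Fgg, Cps1, Hnf4a, Slc10a1, Tdo2, Arg1, Apob, Apoa2, Prox1, Fga, Ahsg, Ttr, Serpina1c, Fgb, Serpina1a, Alb and Cyp7a1), by 4.17 to 16.5 points with a median of 9.77. Their mean per library was 54.4% to 58.8% in NASH against 45.8% to 46.5% in ND. Over all 33989 loci 1104 were called higher in NASH. The Fga and Fgb loci overlap, so the 19 are not all independent of each other. The part of the hepatocyte shift in the macrophage results was not tested.

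The lists of other cell types are read beside all loci, of which 5.2% were called, 1.95% were called lower, 21.3% had an unadjusted p under 0.05, and the median difference was -0.407. Of 9 neutrophil loci 2 fell, Mpo, the granule enzyme myeloperoxidase, by -5.59 points and Cxcr2, a chemokine receptor, by -5.34, with a list median of -2.28. Of 11 endothelial loci 1 fell (Dnase1l3, a secreted nuclease, by -2.63, median -1.49), and of 10 stellate cell loci 1 fell (Reln, reelin, by -2.67, median -1.76). Of 8 lymphocyte loci 0 were called by limma, with 2 at an unadjusted p under 0.05 (Cd2, a T cell adhesion molecule, had the smallest adjusted p, 0.0900, and the median was -1.42). Of 7 cholangiocyte loci 0 were called by limma, again with 2 at an unadjusted p under 0.05 (Muc1, a mucin, had an adjusted p of 0.0505, and the median was -0.447). The list mean for neutrophils was 65.8% to 66.9% in NASH and 67.9% to 69.9% in ND, and that for endothelial cells 60.4% to 61.8% and 62.4% to 62.9%. In both, as in the general macrophage mean, every NASH library was below every ND library, while the stellate, lymphocyte and cholangiocyte means overlapped. The mean of the 21 other macrophage genes overlapped as well (63.8% to 64.8% in NASH, 64.6% to 65.9% in ND), and so did that of the other Kupffer genes. The mean of the recruited and lipid-associated genes did not (66.7% to 68.2% and 68.9% to 70.2%), nor did that of the CSF1 receptor pathway (58.9% to 59.6% and 59.9% to 60.5%). The part of the other cell types in the macrophage result was not tested.

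**Figure D5:**
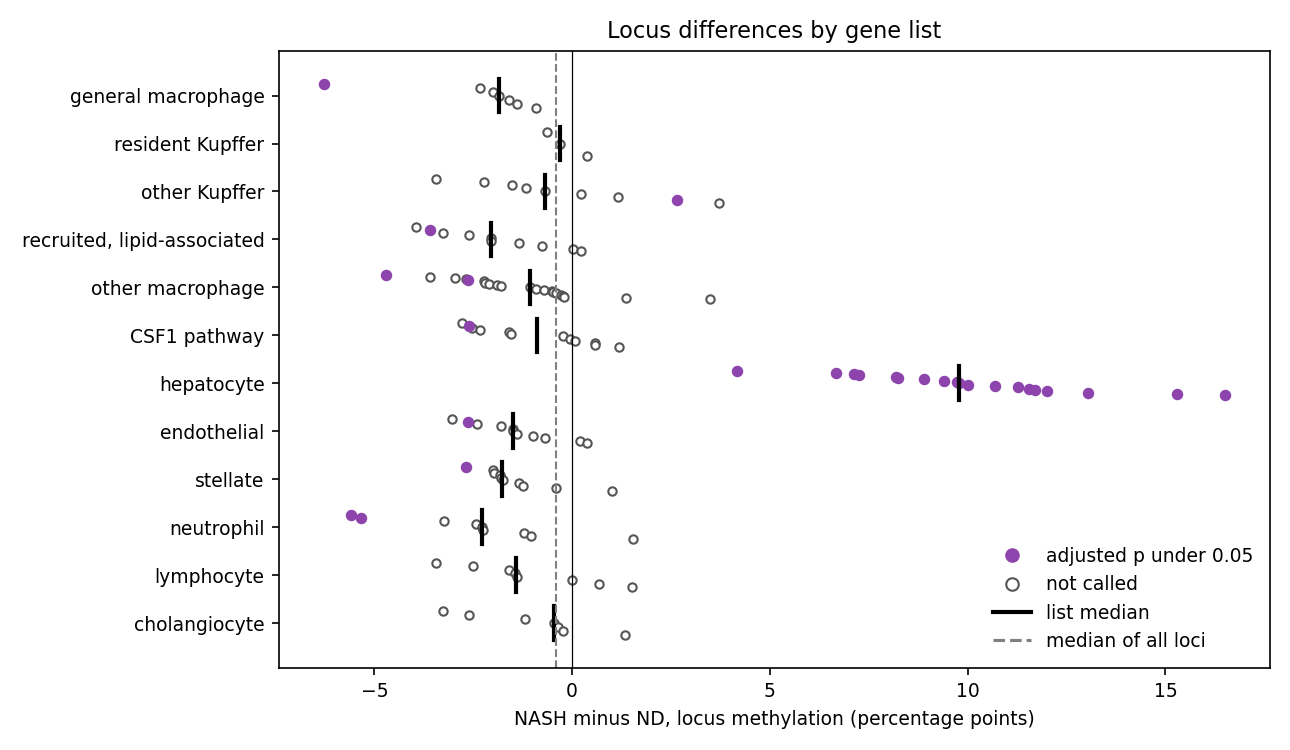
Difference of each tested locus (NASH minus ND, percentage points) by gene list; filled points passed an adjusted p under 0.05, open points did not, thick bars are list medians and the dashed line is the median of all loci, -0.407. The 19 hepatocyte loci are all to the right, at 4.17 to 16.5 points, Mpeg1 is the leftmost point at -6.27, and the medians of the other lists lie between -2.28 and -0.312.

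Across the 8 libraries the loci outside the lists most like Mpeg1 by Pearson's r, among those with at least 50 positions, were Gm16059, an lncRNA gene (r = 0.988), Gna15, a G protein subunit (r = 0.988), and Nsun3, an RNA methyltransferase (r = 0.982). These r values describe 8 libraries in 2 groups and include the group difference. The Gna15 locus was at 63.3% ± 0.625 in NASH and 65.7% ± 0.277 in ND (SD, n = 4 each), a smaller gap than at Mpeg1.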

How the data were processed

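The labels' protocols give frozen liver, kit-purified DNA, sonication, bisulfite treatment and library preparation. The deposited unit is percent methylation of single cytosines, with a row for each strand of a CpG, and the submitters' processing notes name FastQC and mm10. Aligner and methylation caller: not given in the sources used here. Table positions lie 1 base above the genome position (100% of 290334 promoter CpGs), and coordinates here are corrected for this. The table was used for chromosomes 1 to 4, part of 5, and 10 to 19; others were not analysed here. The 326824 positions on 85 contigs were left out.

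Gene positions are RefSeq's for GRCm38.p6. Region levels were unweighted means over at least 6 positions, which all 10 loci passed. They were fitted by group with limma 3.58.1 (R 4.3.3), after tests on simulated data. Members and lists were chosen with earlier results of these data known. All members were named, with the window of smallest p each, called list genes (some hepatocyte genes are not reported here), each list's smallest p, and the 3 loci most like Mpeg1. Same-numbered libraries correlated from -0.0427 to 0.106, so the numbers were not taken to pair them. Alternatives covered zeros, flanks, windows, scales, scaling, the replicate block and leaving out libraries. The depth, and so the counting error, is unknown.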

Additional observations from a re-analysis of the deposited data

Results flagged for a closer look

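In 1 of the 50 groups of 4 libraries examined, a library lay far from the others (chance gives this in about 1 of 20 groups). At the Csf1r end with the larger coordinate, ND library 2 was at 96.9% while the other ND libraries were at 83.4% to 84.3%. Without that library the difference between NASH and ND at this end was -6.12 points in place of -9.34.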

How the results depend on the processing

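Read depth is unknown and each group has 4 libraries, which limits the precision. Over 19 alternatives, Mpeg1 stayed lower in NASH in all and was called in 18, and Adgre1, Csf1r, C1qa, C1qb, Spi1 and Cd5l kept a lower mean in all. For the loci, 821 were called with the replicate number as a block, 997 without any zeros and 1073 without flanks, against 1768, and 789 to 1819 when 1 library was left out. Called members numbered 2 without any zeros (200 loci then rose and 797 fell). With 10 kb flanks they numbered 0, though 2085 loci (6.13%) were called in that fit. The Timd4 locus turned to -0.635 without doubtful zeros (a 0 with a median of at least 50% over its 10 nearest positions), to -0.674 without any zeros, to -0.353 with 10 kb flanks, and spanned -0.129 to 0.965 when 1 library was left out. C1qc without flanks was at 1.10. Marco was at 0.111 after centring and -1.51 to 0.430 when 1 library was left out. The cause of these turns was not tested.

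For 1 kb windows, 21 were called at 500 bases, 0 with the replicate block and 8 to 27 when 1 library was left out. For starts, 800 (3.53%, 1 of them a member) were called at 2000 bases, 0 with the block and 0 to 5 when 1 library was left out. For ends these counts were 995 (1.46%, 1 a member), 0, and 0 to 3, and 24 without doubtful zeros. The C1qc start was at 1.15 with 2000 bases and -5.00 to 0.324 when 1 library was left out, and the Marco start at -3.86 without doubtful zeros and -1.04 to 5.14. With the block, 4 flanks on the low side, 3 gene spans and 0 flanks on the high side were called, with 0 members among them, while the Mpeg1 locus was still called (limma adjusted p = 0.0254). When 1 library was left out these were 129 to 337 (0 members), 248 to 748 (0 to 1 members) and 145 to 290. What same-numbered libraries share beyond the number is not stated, and their deviations correlated at no more than 0.106. Each library left out moved at least 1 of these counts by over 1.5 times.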
